A study of Danio rerio with 20 samples.

Results

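The slow muscle sarcomere genes are 7 zebrafish genes whose proteins build or regulate the contractile filaments of slow fibres: the myosin heavy chain gene smyhc1, the light chain genes myl13 and myl10, the troponin C gene tnnc1b, the troponin I genes tnni1c and tnni4b.2, and the actin gene actc2. They were found through the annotated transcript of each probe, with 1 probe per gene, and make up 7 of 11433 genes tested and of 14657 genes on the array. The members were chosen by their low levels on the cyclopamine arrays relative to ethanol, so their values under cyclopamine are a description and carry no test. The comparisons of SANT-2 and GANT-61 with ethanol share the ethanol arrays with that choice. When SANT-2 is compared with GANT-61, the means share no array with that choice. The spread used to test them comes from all groups, the cyclopamine and ethanol arrays included.

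Messenger RNA was measured in whole embryos that had been exposed from 0.5 to 24 h after fertilisation to 10 µM cyclopamine, 10 µM SANT-2 or 10 µM GANT-61, or to 0.1% ethanol as the control. All embryos had therefore been in a treatment medium from soon after fertilisation, and no genetic alteration is named for any group. Each group had 5 independent replicates, 100 embryos were used per treatment, and each replicate was hybridised to 1 array. Cyclopamine, which comes from plants, and the synthetic molecule SANT-2 both inhibit smoothened, a membrane protein that passes on the hedgehog signal. GANT-61 instead inhibits gli proteins, the transcription factors through which the pathway acts on genes. Because RNA came from whole embryos, fewer slow fibres and less RNA per slow fibre cannot be told apart.

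In the zebrafish, hedgehog ligands from the notochord and floor plate reach the adaxial cells, the medial row of somite cells beside the notochord. Adaxial cells that receive the signal become slow fibres, most of which then migrate to the surface of the somite, while most of the remaining somite forms fast fibres. Slow fibres assemble their own set of sarcomere proteins: myosin heavy chains are the motor, light chains brace and tune its lever arm, troponin C senses calcium, troponin I holds the thin filament off until calcium binds, and actin forms that filament.

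Arrays lay on 4 slides, each of which held all 4 groups. The number of probes well above background was 10038 on the array with the fewest and 12610 on that with the most. Slide 2 was the dimmest, with 75th percentiles of 566.1 to 763 against 1126.2 to 2059.5 elsewhere, and 0 spots were saturated. Each level below is the log2 signal of a probe minus the 75th percentile of its own array on the log2 scale, so levels are compared between arrays and not between genes.

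All 7 slow sarcomere genes were lower on cyclopamine arrays than on ethanol arrays, by 5.04-fold (tnnc1b) to 8.10-fold (smyhc1), which left between 12.3% and 19.8% of the ethanol level. The differences of smyhc1 and myl13 were close, and myl13 had the larger one under quantile scaling (-3.07 against -2.95 on the log2 scale), in the authors' deposited table (-3.13 against -2.96) and with a background correction by the normal-exponential model, repaired after the data had been seen (-2.86 against -2.48). All 7 were among the genes called lower at an adjusted p under 0.05 (limma, Benjamini-Hochberg over 11433 genes), where the background was 0.84% of all genes, and the ranges of both groups were separate for all 7, where it was 1.38%. Both counts repeat the choice of the members. By size of the log2 difference, a ranking that repeats that choice too, they stood in places 6 to 21 among 11433 genes. Place 6 was that of smyhc1, place 7 that of myl13 and place 21 that of tnnc1b. Under SANT-2 and GANT-61 none of the 7 was called against ethanol. The group mean under cyclopamine was the lowest of the 4 for every member, and the ranges of the other groups that neighboured each other in level overlapped for every member.

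**Figure D1:**
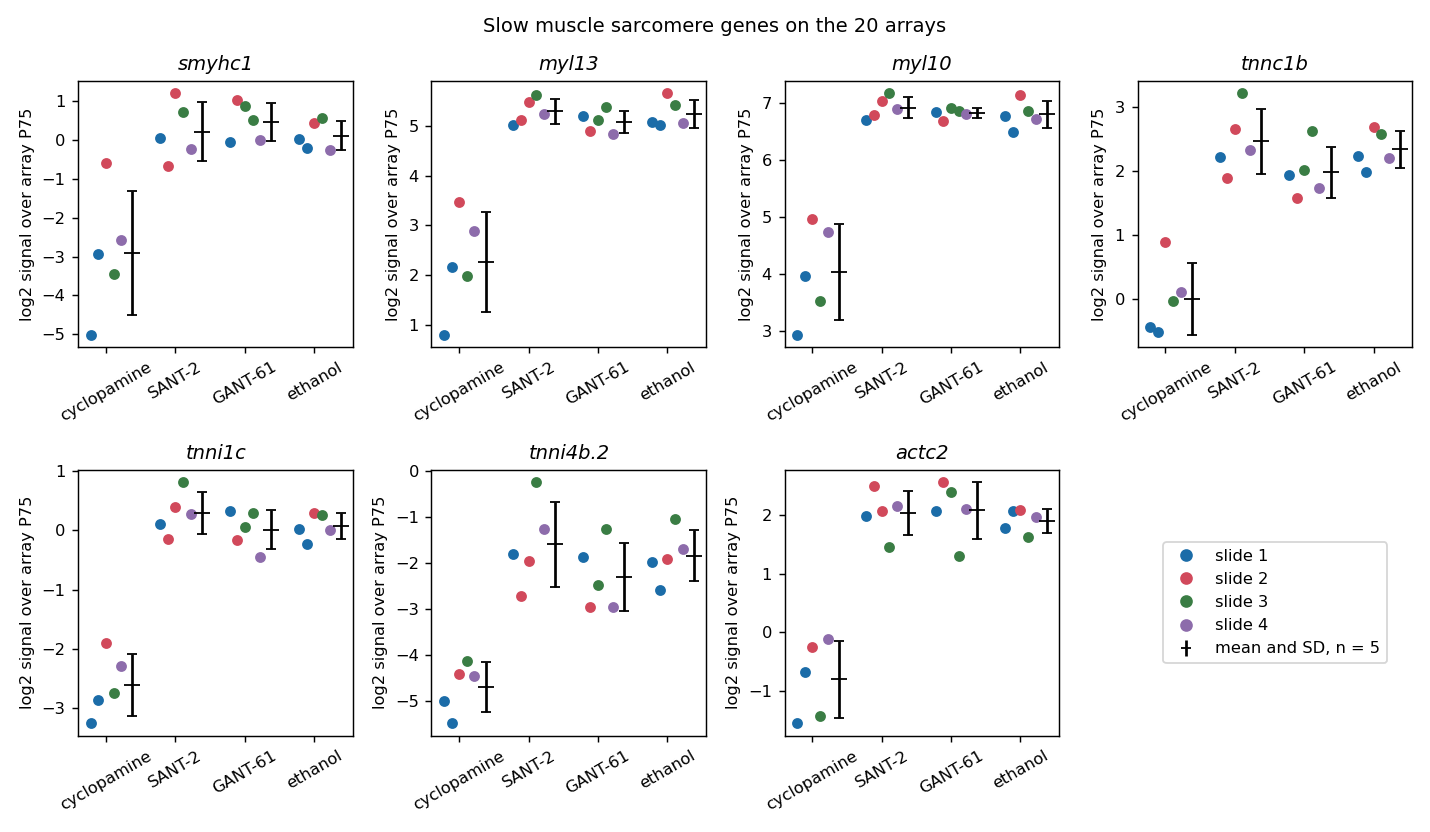
Log2 signal of each gene minus the array's 75th percentile (vertical axes) for the 20 arrays in 4 groups, coloured by slide, with the mean and SD of each group beside its 5 arrays. Cyclopamine arrays lie below ethanol arrays for all 7 genes, and the smyhc1 points under cyclopamine spread from -5.01 to -0.59.

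The myosin heavy chain gene smyhc1 encodes the motor of the first slow fibres. Its log2 levels on the cyclopamine arrays were -5.01, -2.93, -0.59, -3.45 and -2.58 in replicates 1 to 5. On the SANT-2 arrays they were 0.05, -0.68, 1.2, 0.72 and -0.23, and on the GANT-61 arrays -0.06, 1.02, 0.86, 0.51 and -0.01. Ethanol arrays had 0.02, -0.22, 0.44, 0.55 and -0.26. Every cyclopamine array lay below every ethanol and GANT-61 array, but cyclopamine replicate 3 lay above the lowest SANT-2 array. The mean log2 level was -2.91 ± 1.60 under cyclopamine and 0.11 ± 0.37 under ethanol (SD, n = 5 each), a log2 difference of -3.02 ± 0.55 (SE). As signals before scaling, the cyclopamine arrays ranged from 50.1 to 376, against 952 to 2196 on the ethanol arrays. A single array had a large hold on the size: without cyclopamine replicate 3 the log2 difference was -3.60, and without replicate 1 it was -2.49, second smallest of the 7 genes in that fit.

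The smyhc1 probe belongs to a group of closely similar slow myosin genes, and how far it reads the others was not tested, because probe sequences were not used here. The related gene smyhc2 had a probe that was well above background on 0 of 20 arrays. The genes smyhc3, smyhc4 and smyhc5 were looked for, but no probe was matched to their names.

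The light chain genes differed by a similar size with a narrower spread. For myl13 the cyclopamine arrays had log2 levels of 0.80, 2.16, 3.47, 1.99 and 2.9. The SANT-2 arrays had 5.02, 5.11, 5.47, 5.63 and 5.25 for myl13, and the GANT-61 arrays 5.20, 4.9, 5.11, 5.38 and 4.84. Ethanol arrays gave myl13 values of 5.08, 5.02, 5.66, 5.42 and 5.06. The cyclopamine range did not meet that of any other group, and the other ranges overlapped. The mean for myl13 was 2.26 ± 1.01 under cyclopamine and 5.25 ± 0.28 under ethanol (SD, n = 5 each), 7.93-fold lower (log2 difference -2.99 ± 0.33 SE).

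The regulatory-type light chain gene myl10 had log2 levels of 2.93, 3.96, 4.97, 3.53 and 4.74 under cyclopamine. Its levels were 6.71, 6.80, 7.04, 7.18 and 6.90 under SANT-2 and 6.85, 6.70, 6.91, 6.87 and 6.82 under GANT-61. Under ethanol they were 6.77, 6.50, 7.15, 6.86 and 6.73. Again the cyclopamine arrays stood apart below all others, with replicates 3 and 5 the highest among them. The myl10 mean was 4.03 ± 0.85 under cyclopamine and 6.80 ± 0.24 under ethanol (SD, n = 5 each), 6.87-fold lower (log2 difference -2.78 ± 0.27 SE).

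Troponin C, the calcium sensor of the thin filament, was represented by tnnc1b, the slow and cardiac type. Its log2 levels were -0.42, -0.52, 0.90, -0.03 and 0.12 under cyclopamine. They were 2.23, 1.89, 2.66, 3.22 and 2.33 under SANT-2 and 1.95, 1.59, 2.03, 2.63 and 1.74 under GANT-61. Ethanol arrays had 2.25, 1.99, 2.70, 2.58 and 2.21. No cyclopamine array reached the level of any other array, and the other groups overlapped. Of the 7 genes tnnc1b had the smallest log2 difference from ethanol, -2.33 ± 0.27 (SE), with means of 0.01 ± 0.56 under cyclopamine and 2.34 ± 0.29 under ethanol (SD, n = 5 each).

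For the troponin I gene tnni1c, the cyclopamine arrays had log2 levels of -3.26, -2.86, -1.90, -2.74 and -2.29. Levels of tnni1c were 0.11, -0.15, 0.39, 0.82 and 0.27 under SANT-2 and 0.32, -0.16, 0.05, 0.29 and -0.45 under GANT-61. Those under ethanol were 0.02, -0.23, 0.29, 0.27 and 0.01. The cyclopamine arrays were all far below the rest, and the other groups overlapped around the ethanol level. The mean was -2.61 ± 0.53 under cyclopamine and 0.07 ± 0.21 under ethanol (SD, n = 5 each), 6.42-fold lower (log2 difference -2.68 ± 0.23 SE).

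The other troponin I gene, tnni4b.2, had log2 levels of -5.00, -5.49, -4.42, -4.13 and -4.45 under cyclopamine. It had -1.82, -2.72, -1.97, -0.24 and -1.26 under SANT-2 and -1.87, -2.96, -2.49, -1.27 and -2.95 under GANT-61. In ethanol embryos the levels were -1.98, -2.59, -1.91, -1.04 and -1.71. The cyclopamine arrays lay below every other array, and replicate 4 was the highest of its group in all 4 groups. This probe was dim: 4 of 5 cyclopamine arrays and all arrays of the other groups had it well above background. The mean was -4.70 ± 0.54 under cyclopamine and -1.85 ± 0.56 under ethanol (SD, n = 5 each), 7.24-fold lower (log2 difference -2.86 ± 0.42 SE). With the normal-exponential background correction, in which outlying local backgrounds were replaced, the log2 difference was -1.79.

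The actin gene actc2, named as a cardiac-type actin, had log2 levels of -1.56, -0.68, -0.26, -1.43 and -0.12 under cyclopamine. They were 1.98, 2.5, 2.07, 1.46 and 2.16 under SANT-2 and 2.07, 2.57, 2.39, 1.3 and 2.12 under GANT-61. Ethanol arrays had 1.78, 2.08, 2.09, 1.62 and 1.98. Cyclopamine arrays were all below the others, and replicate 4, where tnni4b.2 was highest, was the lowest for actc2 under SANT-2, GANT-61 and ethanol. Its mean was -0.81 ± 0.66 under cyclopamine and 1.91 ± 0.20 under ethanol (SD, n = 5 each), 6.59-fold lower (log2 difference -2.72 ± 0.28 SE).

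The cyclopamine replicates were unequal in how far the slow genes were lowered. Every same-numbered pair of cyclopamine and ethanol arrays shared a slide, and all 7 genes were lower under cyclopamine in all 5 pairs. For smyhc1 the log2 differences in pairs 1 to 5 were -5.03, -2.71, -1.03, -4.00 and -2.32, which left from 3.05% to 48.9% of the level on the paired ethanol array. The smallest spread belonged to tnni4b.2, whose probe was dim under cyclopamine, with pair differences of -3.02, -2.91, -2.50, -3.10 and -2.75. For myl13 they were -4.28, -2.87, -2.19, -3.44 and -2.16, so that pairs 1 and 4 had the largest differences for both myosin genes. The same pairs led for actc2, at -3.34, -2.76, -2.35, -3.05 and -2.10 in pairs 1 to 5.

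**Figure D2:**
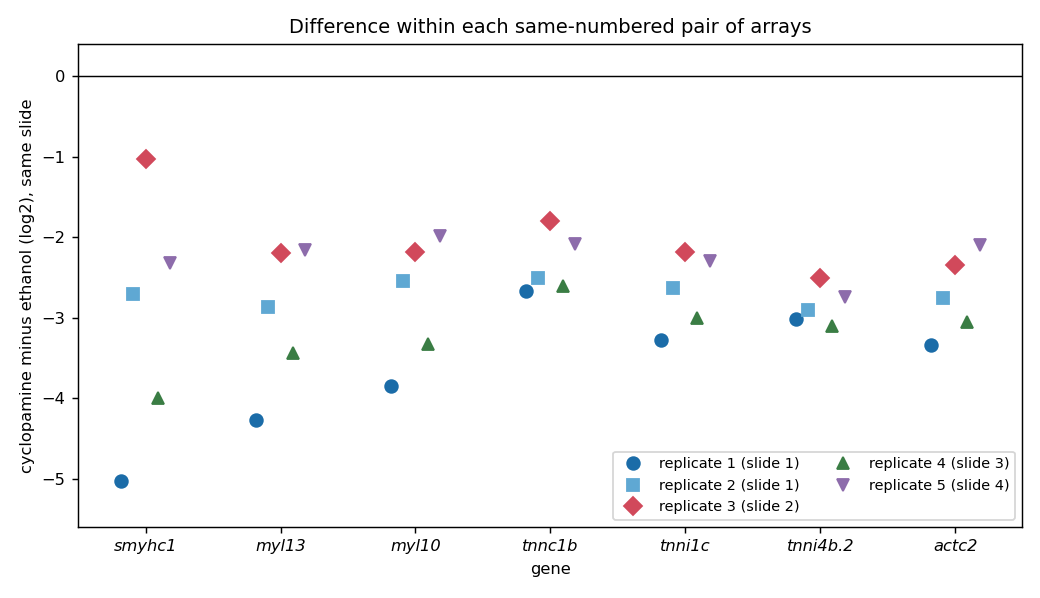
Log2 difference between the cyclopamine and the ethanol array of the same replicate number and slide (vertical axis) for the 7 genes, with 1 marker per replicate. All points lie below 0, and pairs 3 and 5 are the least lowered for all 7 genes, smyhc1 in pair 3 the least of all at -1.03.

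The order of the 5 cyclopamine arrays was largely shared between the genes. Replicate 3 was the highest for 5 of 7 genes and among the highest 2 for all 7, and replicate 1 was the lowest for 5 of 7. The exceptions at the low end were tnnc1b and tnni4b.2, whose lowest array was replicate 2. Replicate 3 lay on slide 2, where signals were lowest (75th percentile of 566.1), and the part of the slide in this was not tested. On that slide, ethanol replicate 3 was also the highest of its group for 5 of 7 genes. SANT-2 replicates 2 and 3 were each the highest of theirs for 1 gene, and GANT-61 replicate 2 for 2. Going the other way, SANT-2 replicate 2 was the lowest of its group for 4 of 7 genes and GANT-61 replicate 2 for 3. Without the slide 2 arrays the log2 difference of smyhc1 was -3.51.

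Spread between replicates was wider under cyclopamine for 6 of the 7 genes. The SD on cyclopamine arrays was 4.29 times that on ethanol arrays for smyhc1, 3.59 times for myl13 and for myl10, 3.24 times for actc2, 2.47 times for tnni1c and 1.95 times for tnnc1b. For tnni4b.2, with signals of only 26.5 to 74.2 on the cyclopamine arrays, the ratio was 0.975. The median ratio over all tested genes was 1.1. On cyclopamine replicate 1 the smyhc1 signal was 50.1, about as dim as tnni4b.2 there (50.4). The part of low signals in the spread of smyhc1 and of tnni4b.2 was not tested.

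The mean of the 7 genes, each relative to its ethanol mean, was -3.74, -3.0, -1.78, -2.99 and -2.33 on cyclopamine replicates 1 to 5. A list of 12 tested hedgehog-responsive genes averaged -2.39, -2.06, -1.51, -2.21 and -1.97 on the same arrays. In both means, replicate 3 was the least lowered, replicate 5 the next and replicate 1 the most lowered. Single hedgehog-responsive genes, named after their values were seen, differed in this. The gene olig2 kept that order, and nkx2.2a was the most lowered in replicate 4. For foxa the values were -1.56, -1.07, -1.69, -1.79 and -1.42, so that replicate 2 was the least lowered and replicate 4 the most. The fast muscle list ordered these arrays in another way, with means of 0.17, -1.66, 0.06, 0.91 and -0.92, replicate 4 being highest and replicate 2 lowest.

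**Figure D3:**
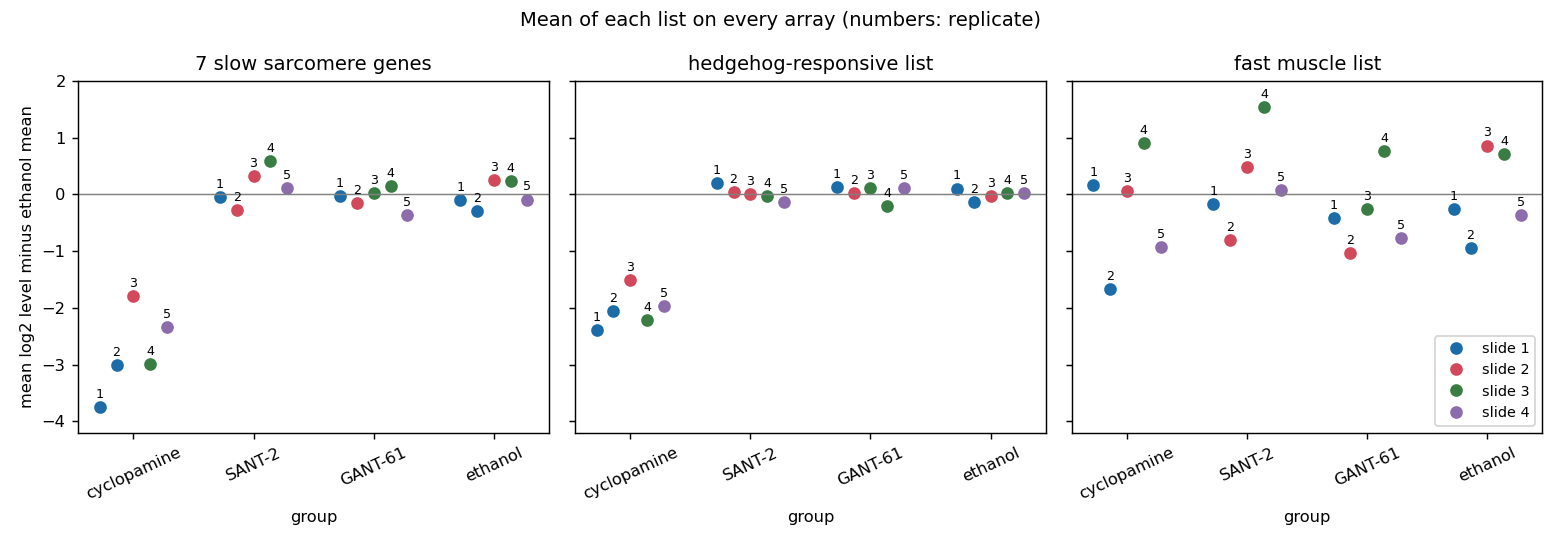
Mean log2 level of the 7 slow sarcomere genes, of 12 hedgehog-responsive genes and of 15 fast muscle genes on every array (vertical axis, each gene relative to its ethanol mean), with replicate numbers and slide colours. The slow and the hedgehog-responsive means lie below 0 on all cyclopamine arrays and are highest there in replicate 3, whereas the fast muscle mean on those arrays ranges from -1.66 to 0.91.

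On the 15 arrays without cyclopamine the genes moved together to differing degrees, and the fast muscle list moved in part with them. In each group the slow and the fast means were highest on the same array: ethanol replicate 3, SANT-2 replicate 4 and GANT-61 replicate 4. Both were lowest on replicate 2 under ethanol and SANT-2. Under GANT-61 the slow mean was lowest on replicate 5 and the fast mean on replicate 2. The following correlations are descriptions across arrays that share slides and replicate numbers. No baseline from pairs of other genes was computed, so they do not show a link particular to these genes. Over deviations from the group means, the 15 pairs that do not involve actc2 all had a Pearson r above 0, from 0.283 to 0.889 with a median of 0.716. All 6 pairs with actc2 had an r below 0, from -0.834 (with tnni4b.2) and -0.795 (with tnnc1b) to -0.20 (with smyhc1). The division at actc2 was made after the values had been seen. With slide means also taken out, the actc2 pairs ranged from -0.776 to -0.171 and the other pairs from 0.209 to 0.923. By Spearman rank correlation with slide means taken out, smyhc1 had -0.004 with myl13 and -0.025 with tnni4b.2. So actc2, which was low with the other 6 genes on the cyclopamine arrays, tended the opposite way to most of them among the remaining arrays. Its relation to smyhc1 was weak (r of -0.20, and -0.171 with slide means taken out). Replicate 4 of every group lay on slide 3, and there actc2 had 1.46, 1.3 and 1.62 under SANT-2, GANT-61 and ethanol while tnni4b.2 had -0.24, -1.27 and -1.04. GANT-61 replicate 3, also on slide 3, differed from these, with 2.39 for actc2 and -2.49 for tnni4b.2.

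Under SANT-2, which blocks the same membrane protein as cyclopamine, no slow sarcomere gene differed detectably from ethanol. None of the 7 was called at an adjusted p under 0.05, where the background was 0% of all genes (0 of 11433 called, and 130 with an unadjusted p under 0.05). All 7 overlapped ethanol in range, while 0.122% of all genes did not. The log2 differences ran from 0.05 (myl13) to 0.25 (tnni4b.2), with a median of 0.12 beside 0.04 for all genes, and every adjusted p was 1. In the fit that shares its spread over all groups, tnni1c had the smallest SE of the 7. Its difference was 0.22 with a 95% interval of -0.26 to 0.70, which corresponds to 83.5% to 162% of the ethanol level. The widest interval was that of smyhc1, -1.05 to 1.26 around 0.11, or 48.4% to 240% of ethanol. Within single slides the differences under SANT-2 had both signs for every gene. With slide as a block smyhc1 stood at -0.15 and myl13 at -0.09.

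Under GANT-61, which acts downstream of smoothened, the outcome was like that under SANT-2 in its calls: 0 of 7 genes passed, where the background was 0.157% of all genes. All 7 ranges overlapped those of ethanol, and 1.54% of all genes were separate. The log2 differences lay between -0.46 (tnni4b.2) and 0.35 (smyhc1), with a median of -0.06 beside 0.06 for all genes, and adjusted p-values were 0.854 to 0.992 (limma). For tnnc1b the difference was -0.36 with a 95% interval of -0.93 to 0.21, or 52.5% to 116% of ethanol, and it was below 0 on all 4 slides (-1.11 to -0.17). For tnni4b.2 the interval of -1.34 to 0.41 still allowed 39.5% of the ethanol level, and 3 of 4 slides were below 0. The genes smyhc1 and actc2 were above ethanol on all 4 slides, with differences of 0.35 (-0.80 to 1.51) and 0.18 (-0.41 to 0.76).

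**Figure D4:**
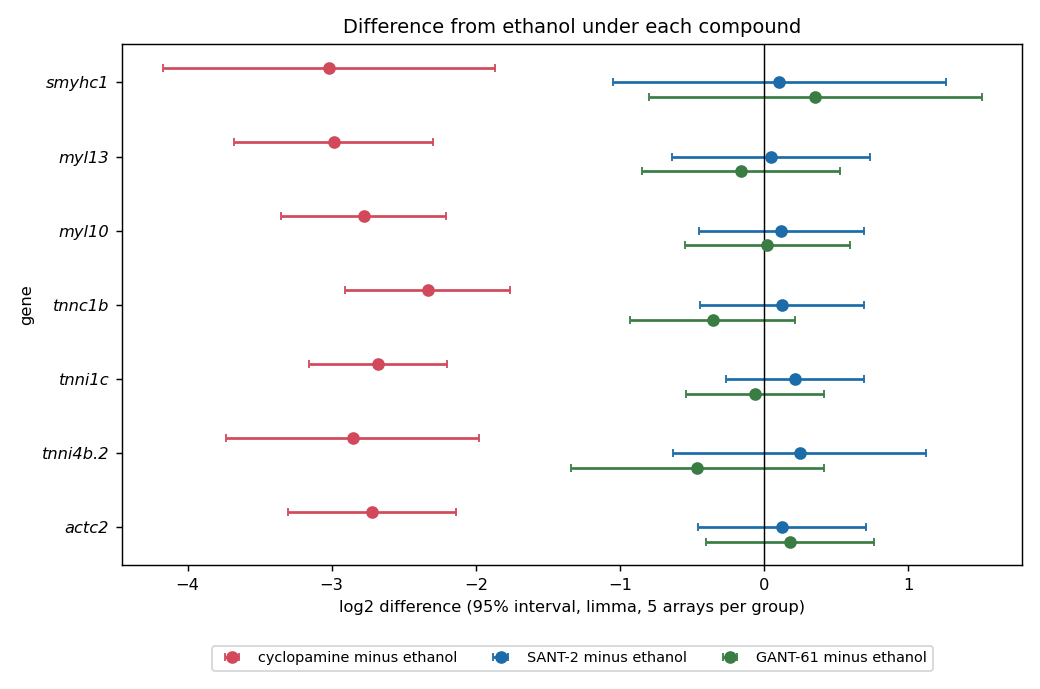
Log2 difference from ethanol (horizontal axis, with 95% intervals from limma, 5 arrays per group) under cyclopamine, SANT-2 and GANT-61 for the 7 genes. Intervals for SANT-2 and GANT-61 all include 0, and cyclopamine differences lie between -3.02 and -2.33.

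The lower bounds of the intervals give, for each gene alone, the largest loss compatible with its estimate in this fit. They do not show how large a loss the calls could have missed, because calls rest on p-values adjusted over all tested genes. The intervals of this fit rest on the spread over all 20 arrays, the cyclopamine arrays included, and not on the compared groups alone. The SD of smyhc1 was 1.60 under cyclopamine, 0.75 under SANT-2, 0.49 under GANT-61 and 0.37 under ethanol. For tnni4b.2 it was 0.54, 0.92, 0.73 and 0.56 in the same order. Under SANT-2 the lowest bound of any of the 7 was 48.4% of ethanol (smyhc1), and under GANT-61 it was 39.5% (tnni4b.2), whereas the means under cyclopamine were at 12.3% to 19.8%. The 3 compounds were each used at 10 µM for the same time, and all compared groups share the ethanol arrays.

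Set against each other at that dose, SANT-2 and GANT-61 did not differ detectably for any slow sarcomere gene. The means in this comparison share no array with the choice of the members. Its intervals and p-values are not separate from that choice, because their spread comes from all groups, cyclopamine and ethanol included. Of the 7 genes 0 passed, where the background was 0.262% of all genes (30 called, or 120 when the replicate number was a block), and every adjusted p was 1.00 (limma). The largest log2 differences, SANT-2 minus GANT-61, were those of tnni4b.2 at 0.71 (95% interval -0.17 to 1.59) and tnnc1b at 0.48 (-0.09 to 1.05), and both were above 0 on all 4 slides. Unadjusted p-values were 0.106 and 0.0938. For the others the differences ran from -0.25 (smyhc1, -1.40 to 0.91) to 0.28 (tnni1c, -0.20 to 0.76). All 7 ranges overlapped, while 1.33% of all genes were separate. With the replicate number as a block the smallest adjusted p was 0.185, for tnni4b.2.

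Directly compared, cyclopamine arrays were lower than SANT-2 arrays by 5.49-fold (tnnc1b) to 8.72-fold (smyhc1), and lower than GANT-61 arrays by 3.94-fold (tnnc1b) to 10.4-fold (smyhc1). These sizes also rest on the cyclopamine arrays that chose the members and have no test. Calls and separate ranges in these comparisons follow from that choice and are given without weight. All 7 genes were among those called lower against SANT-2 (0.735% of all genes) and against GANT-61 (1.61% of all genes). Over the whole table, 204 genes were called against SANT-2 with a replicate block and 86 without it, and 644 against GANT-61 with the block and 208 without it. Ranges were separate for 6 of 7 genes against SANT-2 (1.11% of all genes) and for 7 of 7 against GANT-61 (2.22% of all genes).

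Most other muscle genes lay nearer the ethanol level under cyclopamine, as described here from lists drawn up with earlier results of these data known. The cyclopamine comparison called 96 genes lower and 4 higher over the whole table, 0.875% in all, or 259 genes when the replicate number was a block. Of 18 further slow muscle genes listed, 9 had a probe and 6 were tested. Of these 6, 1 fell, the Z-disc gene myoz2b, 2.65-fold lower (log2 difference -1.41 ± 0.22 SE, adjusted p = 0.00144, limma). It was also lower than under SANT-2 (adjusted p = 0.00449) and GANT-61 (adjusted p = 0.0132). Relative to its ethanol mean, myoz2b had -1.19, -2.03, -1.17, -1.04 and -1.61 on cyclopamine replicates 1 to 5. The median log2 difference of the 6 was -0.20, beside 0.03 for all tested genes. Of these 6, tnni1d and tnni4a, named after their values were seen, were dim. On ethanol arrays they were well above background in 4 and 2 of 5, and on cyclopamine arrays in 1 and 2 of 5. Both left little room for a fall to show, so the count and the median say little about them. The homeobox gene prox1a, which acts in slow fibre differentiation, stood at -0.33 (adjusted p = 0.289, with 0.0306 for slide as a block and 0.0705 for a replicate block).

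In the fast muscle list 0 of 15 tested genes were called under cyclopamine, with a median log2 difference of -0.21. The 2 brightest, the light chain gene mylpfa and the troponin I gene tnni2b.1, differed by -0.10 and -0.19 (adjusted p = 1.00 each, limma). The parvalbumin gene pvalb4 was an exception in size, named after its values were seen, at -2.34 ± 0.77 (SE; adjusted p = 0.354, 0.0359 with slide as a block, 0.000153 with a replicate block). Among 21 general skeletal muscle genes 2 fell: myod1, a transcription factor that specifies muscle cells, at -0.79 ± 0.15 (SE; adjusted p = 0.00618), and chrna1, a subunit of the acetylcholine receptor, at -0.70 ± 0.14 (adjusted p = 0.014). With a replicate block 4 genes fell, and the median of the list was -0.38.

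Heart genes can share sarcomere proteins with slow fibres, so a list of heart genes was set beside the 7 genes. How much of the RNA of each listed gene came from the heart was not tested. Of 13 tested heart genes 0 were called under cyclopamine and 4 were lower with the replicate number as a block, with a median log2 difference of -0.36. The 2 brightest were the actin gene actc1a at -0.41 (adjusted p = 1.00) and mef2ca, a transcription factor, at -0.13 (adjusted p = 1.00). The 4 genes lower with the replicate block, named after their values were seen, were the light chain gene myl4 at -1.72 (adjusted p = 0.315, and 0.0125 with the block), the myosin heavy chain gene myh7 at -0.77 (0.110, and 0.00602 with the block), the light chain gene cmlc1 at -0.49 (0.443, and 0.0124 with the block) and the transcription factor gene nkx2.5 at -0.56 (0.421, and 0.000352 with the block). The part of heart RNA in the slow gene values was not tested. In the other lists, 0 of 3 smooth muscle genes and 0 of 6 somite genes were called, with medians of -0.12 and 0.11. The brightest smooth muscle genes were acta2 (0.25) and myh11a (-0.12), and the brightest somite genes were meox1 (0.22) and tbx6 (0.17). Of 11 markers of other embryonic tissues with a probe, 10 were bright enough to test, and 1 of those 10 fell, the pancreas gene pdx1 at -0.72 (adjusted p = 0.0116).

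Of 12 tested genes in the hedgehog-responsive list, 9 were called lower under cyclopamine (0.84% of all genes), with a median log2 difference of -2.23. This list, like the others, was drawn up with earlier results of these data known, so its counts and p-values are a description. With the replicate number as a block 10 were called lower. The added gene was foxa2, named after its values were seen, at -0.50 (limma, adjusted p = 0.598, and 0.0292 with the block). The smallest adjusted p-values were those of the neural tube genes nkx2.2a (-3.92 ± 0.20 SE, adjusted p = 7.01e-10) and olig2 (-2.83 ± 0.19, adjusted p = 2.19e-08), and the mesodermal genes foxf1 (-2.17 ± 0.16, adjusted p = 1.10e-07) and foxl1 (-2.30 ± 0.17, adjusted p = 1.30e-07). The median of the 7 slow sarcomere genes was -2.78. Under SANT-2 and under GANT-61, 0 genes of any of these lists were called against ethanol in the model without a block, whereas with a replicate block pvalb4 (-1.24, adjusted p = 0.0453) and chrna1 (-0.33, adjusted p = 0.0354) were called lower under GANT-61.

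**Figure D5:**
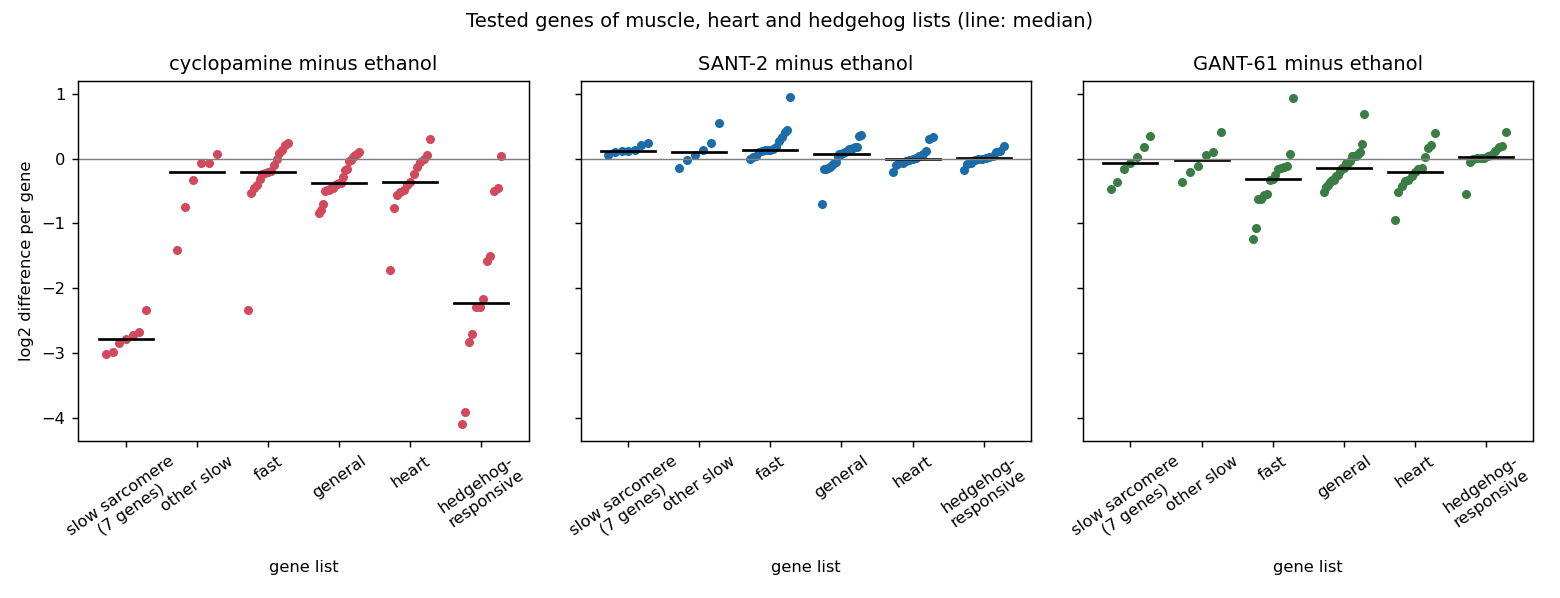
Log2 difference from ethanol per gene (vertical axis) under cyclopamine, SANT-2 and GANT-61 for tested genes of 6 lists, sorted within each list, with the median as a line. Under cyclopamine the medians of the slow sarcomere and hedgehog-responsive lists are -2.78 and -2.23, and those of the other slow, fast, general muscle and heart lists lie between -0.38 and -0.20.

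Tested genes with a symbol, other than the 7, were ranked by likeness to the mean of the 7. The measure was Pearson r over the 20 arrays, without a test, and genes without a symbol were not ranked. The highest were olig2 (0.976), foxf1 (0.969), nkx3-2 (0.966), nkx2.2a (0.963), the small heat shock protein gene hspb9l (0.961), nkx6.1 (0.960), the hormone precursor gene trh (0.940) and foxl1 (0.936). The arrays form a cyclopamine cluster and a cluster of all others, so these values mostly reflect that division. With slide means taken out, the first 6 in order were foxf1 (0.986), olig2 (0.980), nkx3-2 (0.979), hspb9l (0.974), nkx2.2a (0.973) and nkx6.1 (0.965), followed by foxd1 (0.959) and the LIM domain gene fhl1a (0.957). Under cyclopamine they were between 2.08-fold (foxd1) and 22-fold (hspb9l) lower than under ethanol, with olig2 at 7.09-fold and nkx3-2 at 6.55-fold, inside the 5.04-fold to 8.10-fold range of the slow genes. Outside the 7, which were not ranked, no gene of the slow, fast or general muscle lists was among these genes. Those lists do not cover all muscle genes, and fhl1a and hspb9l are on none of them.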

How the data were processed

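Whole-embryo RNA was extracted with Trizol and labelled with Cy3, per the labels' protocols, and hybridised to 1-colour Agilent arrays. The deposited scanner files hold the spot intensity, which per the file headers had been background-subtracted by Feature Extraction 10.1.1.1 but not scaled between arrays. The authors' deposited table of normalised log2 values, which correlated at 0.9975 or more with the log2 scanner signal of each array and had column medians of 7.196 to 7.223, was used as an alternative. Its exact normalisation is not given in the sources used here.

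From the 14928 non-control spots per array, outlier spots (1 to 18 per array) were set aside, intensities were taken to log2, the array's 75th percentile was subtracted and spots of 1 probe were averaged. Names came from a reference gene table (assembly GRCz12tu, names only): 9185 of 14694 probes matched 1 symbol and 5509 none. For 37 genes with several probes the brightest was kept. Testing required a signal well above background on 4 or more of the 5 arrays in 1 or more groups, which all 7 slow sarcomere genes met, each in every group.

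All 20 arrays were fitted with limma 3.58.1 in R 4.3.3 with 1 mean per group and, for each gene, 1 estimate of the spread shared by all groups. Two-sided p-values were adjusted by the Benjamini-Hochberg method over 11433 genes in each comparison, and a call is an adjusted p under 0.05. The model was tested on simulated data. The number of arrays limits the precision. The members, gene lists and comparisons were chosen with earlier results of these data known. The text names all 7 members and, from each other list, up to 4 genes with the smallest adjusted p where any passed and otherwise the 2 with the highest mean signal. It also names the 8 genes most correlated with the members' mean, with and without slide means. Members and genes without a symbol were left out of that ranking. Other genes are named as chosen after their values were seen. Alternatives were other scalings, background correction, filters on dim probes, probe averaging, slide or replicate blocks, fits of 2 groups, a trended robust spread, and leaving out arrays or slide 2. The normal-exponential correction used the median spot signal, as the mean spot signal was not used here.

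Same-numbered arrays shared a slide in 3 to 5 of 5 pairs. The lowest correlation of their deviations from the group means was 0.46 for cyclopamine with ethanol, 0.26 for cyclopamine with SANT-2, 0.21 for cyclopamine with GANT-61 and 0.14 for SANT-2 with GANT-61, all above the limit of 0.1 used for pairing. It was -0.01 for SANT-2 with ethanol and -0.04 for GANT-61 with ethanol. The calls and intervals given first come from the model without a block in every comparison, so they do not use this pairing. Counts of calls with the replicate number as a block stand beside those it changes or in the closing section. Intervals with that block are not given.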

Additional observations from a re-analysis of the deposited data

How the results depend on the processing

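None of the 7 genes was called in any of 69 combinations of an alternative with a comparison, for SANT-2 or GANT-61 against ethanol or SANT-2 against GANT-61. Of the 483 gene values in these comparisons, 23 changed sign, none called in either setting, the largest of them 0.30 in size. The smallest adjusted p was 0.185 (limma). Under cyclopamine 0 of 483 values reversed and 12 moved by at least the larger SD of the groups compared, all under background correction by the normal-exponential model. As planned, that correction gave -4.1 for myl10, -1.56 for tnni1c and -0.54 for tnni4b.2 against ethanol, and -1.58 for smyhc1, within its wide SD. On 2 cyclopamine arrays local backgrounds marked as outliers reached 789415 and 789336, against at most 48 for unmarked ones on any array. With those replaced, a setting chosen after seeing the data, tnni4b.2 stood at -1.79 and smyhc1 at -2.48. tnni4b.2 is the member nearest the background.

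Counts over all genes moved more, and the cause was not tested. For cyclopamine minus ethanol (100 genes) they were 10 with the planned correction, 56 with the repaired one, 250 with slide as a block, 259 with a replicate block and 53 in a fit of 2 groups. For cyclopamine minus SANT-2 (86) the same settings gave 10, 52, 179, 204 and 35, and for cyclopamine minus GANT-61 (208) 15, 103, 610, 644 and 120, with 318 without slide 2. For GANT-61 minus ethanol (18) they were 1 with the planned correction, 206 with slide, 142 with a replicate block, 5 with 2 groups and 101 without slide 2. For SANT-2 minus GANT-61 (30) they were 3 with the planned correction, 18 with the repaired one, 114 with slide and 120 with a replicate block. Leaving out 1 array gave 77 to 104 genes for cyclopamine minus ethanol, 69 to 101 for cyclopamine minus SANT-2, 147 to 251 for cyclopamine minus GANT-61 and 24 to 30 for SANT-2 minus GANT-61. For GANT-61 minus ethanol it gave 11 (without ethanol replicate 2) to 31 (without ethanol replicate 4). SANT-2 minus ethanol kept 0 genes throughout these settings. The replicate block changed no call on the 7 genes.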
